A study of Mus with 8 samples.

Results

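The genes described here encode extracellular matrix proteins, the enzymes that cross-link or cut them, and surface proteins that mark fibroblasts. Collagens and elastic fibres give a tissue its tensile strength, basement membranes sheathe each adipocyte and capillary, and lysyl oxidases, metalloproteinases and their inhibitors remodel both. In fat depots most of the fibrillar matrix is laid down by fibroblasts and adipocyte progenitors, whereas vessel cells and adipocytes contribute to basement membranes. The members are a list of 40 genes, chosen by name, of which 37 could be measured among 30702 named genes. Each of the 37 had a single probe set annotated with 1 gene. Loxl2 and Pdgfra share their probe sets with other genes, and Fbn1 was not analysed here.

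The tissue was brown fat from the interscapular pad of C57BL/6 mice, a depot that burns lipid for heat. The groups were 4 mice labelled as Hilpda knockout (KO) and 4 wild type (WT) mice, 1 array each. The product of Hilpda is a small protein of lipid droplets and an inhibitor of the lipase ATGL. The sources used here give neither age nor diet, nor the deleted part of the gene, nor whether the deletion is confined to a cell type. All values are deposited log2 expression values, and all differences are log2 values of KO minus WT. Precision is limited by the number of arrays.

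Several facts of the arrays bear on all results. Replicates 1 and 2 of both groups (set 1) had a median of named genes of 3.93 to 3.99, and replicates 3 and 4 of both groups (set 2) one of 4.92 to 4.97, so the sets look normalized apart and levels are compared only within a set. Hilpda read 4.45 and 4.37 in KO, against 4.37 and 4.28 in WT, in set 1, and 5.60 and 5.51 in KO, against 6.00 and 5.92 in WT, in set 2. Its level went with the labels in set 2 only (-0.40, SE 0.10, limma adjusted p = 0.144), and the deleted part is unknown, so directions refer to the arrays labelled KO. The labels call the mice female, but the Y-linked gene Uty read 9.31 to 10.93 and Xist, the X-inactivation transcript, 3.49 to 4.10 over the 8 arrays. The tissue label was borne out by Ucp1 and Cidea, markers of brown adipocytes, at 18.76 or above on all arrays.

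Most members stood clear of low signal. Olfactory receptor genes, taken as a group of mostly low signal, had a 95th percentile of 3.79 to 3.94 in set 1 and of 4.74 to 4.84 in set 2. Of the 37 members, 31 lay above that level on all 8 arrays. Timp1, an inhibitor of metalloproteinases, lay above it on none, and Col5a1, Col15a1, Cd248, Islr and Pi16 on 1 to 5 arrays. The fibroblast label rests on weak signal in set 1. Of 9 measured fibroblast markers, the 4 members Cd248, Islr, Pi16 and Dpp4 and 5 others, 4 were above the level on all arrays of set 1 and 8 on all arrays of set 2. In bulk tissue, fewer cells of a type and less RNA per cell cannot be told apart.

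Over both sets, no matrix or fibroblast gene differed between KO and WT by more than the spread at the threshold used, an adjusted p under 0.05. In limma with the set as a block and Benjamini-Hochberg adjustment over all genes, 0 of the 37 members passed, and so did 0% of all genes (lowest adjusted p among members 0.984). At an unadjusted p under 0.05 there were 2 members, Mfap5 and Loxl1, both lower in KO, or 5.41% of the members beside 2.34% of all genes on that side, and 0 members were higher (2.49%; 4.82% on either side). The difference was below 0 in 23 of 37 members, or 62.2%, and in 47.4% of all genes. The median difference of the members was -0.04, and that of all genes 0.01. All but Timp1 of the members had means above low signal, the 95th percentile of olfactory receptor means. Of the 17297 genes with such means 53.3% were below 0, with a median of -0.01. At an unadjusted p under 0.05, 3.29% of them were lower and 2.39% higher.

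Mfap5 and Loxl1 are both proteins of elastic fibres. Mfap5, a microfibril-associated glycoprotein, read 4.92 and 4.83 in KO, against 5.19 and 5.12 in WT, in set 1. Set 2 gave 6.63 and 6.38 in KO, against 6.93 and 6.78 in WT. All KO values lay below the WT values of the same set, and the difference was -0.32 (SE 0.08, limma unadjusted p = 0.00533, adjusted p = 0.984). With any 1 array left out it was between -0.36 and -0.26.

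Loxl1, a lysyl oxidase that cross-links elastin, read 5.79 and 5.59 in KO, against 5.82 and 6.53 in WT, in set 1. Its values in set 2 were 7.91 and 7.39 in KO, against 8.55 and 8.16 in WT. Both KO values were again below both WT values in each set, but in set 1 KO replicate 1 and WT replicate 1 were nearly level. The difference was -0.59 (SE 0.19, limma unadjusted p = 0.0157, adjusted p = 0.984) and ranged from -0.76 to -0.47 with 1 array left out. These were the only 2 members parted downward in both sets, 5.41% of the members beside 2.46% of all genes, and 0 members were parted upward in both (2.85% of all genes).

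The sets themselves differed. In set 2 most matrix genes lay lower in KO, with 25 of 37 below 0, or 67.6%, beside 46.5% of all genes, and a median of -0.17. In set 1, 15 lay below 0, or 40.5%, beside 48.9% of all genes, and the median was 0.04. Of the 17297 genes with means above low signal, 44.7% were below 0 in set 2 and 59.2% in set 1. Without KO replicate 1 the set 1 count was 19 below 0 and the median -0.0077. Values of KO and WT did not overlap downward in set 2 in 22 members, or 59.5%, beside 19.1% of all genes. Upward they parted in 6 members, or 16.2%, beside 23.9%. In set 1, 12 members were parted upward, or 32.4%, and 6 downward, or 16.2%, beside 19% and 19.4% of all genes. Of these 12, 10 were parted downward in set 2: Col1a2, Col3a1, Col6a1, Col6a2, Col6a3, Fn1, Eln, Timp1, Sparc and Lum. That makes 27% of the members with this turn, beside 5.28% of all genes, and 1 member with the opposite turn, Lamb1, or 2.7%, beside 7.39%.

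**Figure D1:**
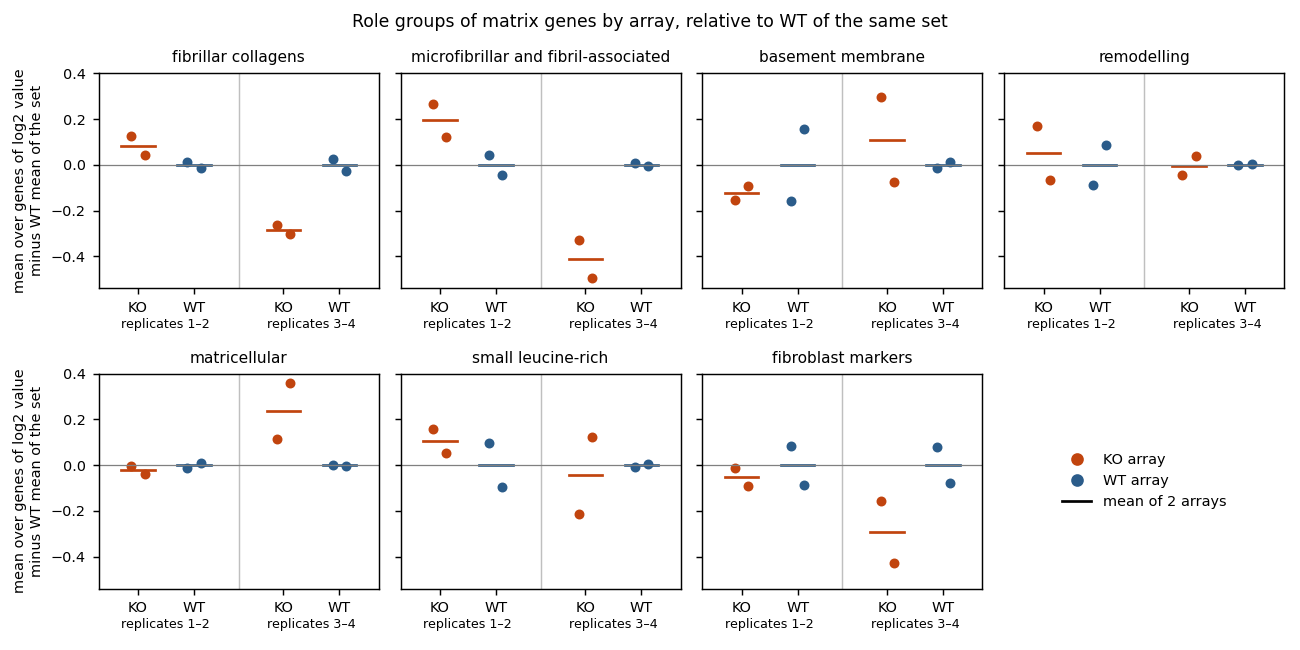
Each point is 1 array, KO left of WT within each set. The y axis is the mean over the genes of a role group of the log2 value minus the WT mean of the same set, and horizontal bars are means of 2 arrays. In replicates 3 and 4 both KO arrays lie at -0.26 and -0.30 for fibrillar collagens and at -0.33 and -0.50 for the microfibrillar group, below both WT arrays.

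Of the 5 fibrillar collagens, the rope-forming proteins of connective tissue, 2 were parted in this way, Col1a2 and Col3a1, and 4 were parted downward in set 2. All 5 lay higher in KO in set 1, with a median of 0.06 (3 of 5 after quantile normalization, after median centring or without KO replicate 1), and lower in set 2, with a median of -0.32 and a range of -0.51 to -0.06. Col1a1, which encodes the main chain of type I collagen, read 5.03 and 4.85 in KO, against 4.86 and 4.91 in WT, in set 1. In set 2 it read 6.21 and 6.17 in KO, against 6.50 and 6.51 in WT. The groups overlapped in set 1 and were parted in set 2, where the difference was -0.32 (SE 0.10, limma adjusted p = 0.209).

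Col1a2, the partner chain of Col1a1, differed by 0.12 (SE 0.11) in set 1 and by -0.45 (SE 0.11, adjusted p = 0.134 in limma) in set 2. Col3a1, the type III collagen of vessels and loose connective tissue, read 5.35 and 5.24 in KO, against 5.14 and 5.01 in WT, in set 1. Its set 2 values were 6.22 and 6.06 in KO, against 6.76 and 6.55 in WT. The groups were parted upward in set 1 (0.22, SE 0.12) and downward in set 2 (-0.51, SE 0.12). The difference between these differences was -0.73 (SE 0.17, limma adjusted p = 0.116). Col5a1 and Col5a2, minor chains that start fibrils, stood within 0.09 of 0 in both sets, and Col5a1 was above low signal on 1 array only.

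The microfibrillar and fibril-associated group followed the fibrillar collagens. Of its 7 measured genes 6 lay higher in KO in set 1, with a median of 0.15, and 7 of 7 were parted downward in set 2, with a median of -0.42. The 3 chains of type VI collagen, a beaded filament around adipocytes, differed in set 2 by -0.43 (Col6a1, SE 0.11), -0.14 (Col6a2, SE 0.10) and -0.42 (Col6a3, SE 0.13). In set 1 the same chains differed by 0.24, 0.07 and 0.21. Col14a1, which binds to fibril surfaces, stood at -0.45 (SE 0.14) in set 2, and elastin (Eln) at -0.33 (SE 0.12). The lowest limma adjusted p of the group in set 2 was 0.147. Of the 7, Mfap5 alone was below 0 in both sets.

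Fn1, which encodes fibronectin, an adhesive glycoprotein of plasma and matrix, had the widest turn among the members parted in opposite directions. It read 8.16 and 7.04 in KO, against 6.77 and 6.57 in WT, in set 1. Set 2 gave 7.61 and 7.49 in KO, against 8.21 and 8.42 in WT. The difference was 0.93 (SE 0.33) in set 1 and -0.76 (SE 0.33) in set 2, and that between the sets -1.69 (SE 0.46, limma adjusted p = 0.157). Plasma fibronectin is made by hepatocytes, and Alb, the albumin gene of liver, read 19.23 and 15.81 in KO, against 14.51 and 10.03 in WT, in set 1 and 4.79 to 5.23 in set 2. The array highest for Alb, KO replicate 1, was also the highest of set 1 for Fn1. Without it the set 1 difference of Fn1 was 0.37, and the difference over both sets was -0.31 in place of 0.08. The part of liver transcripts in the Fn1 values was not tested.

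**Figure D2:**
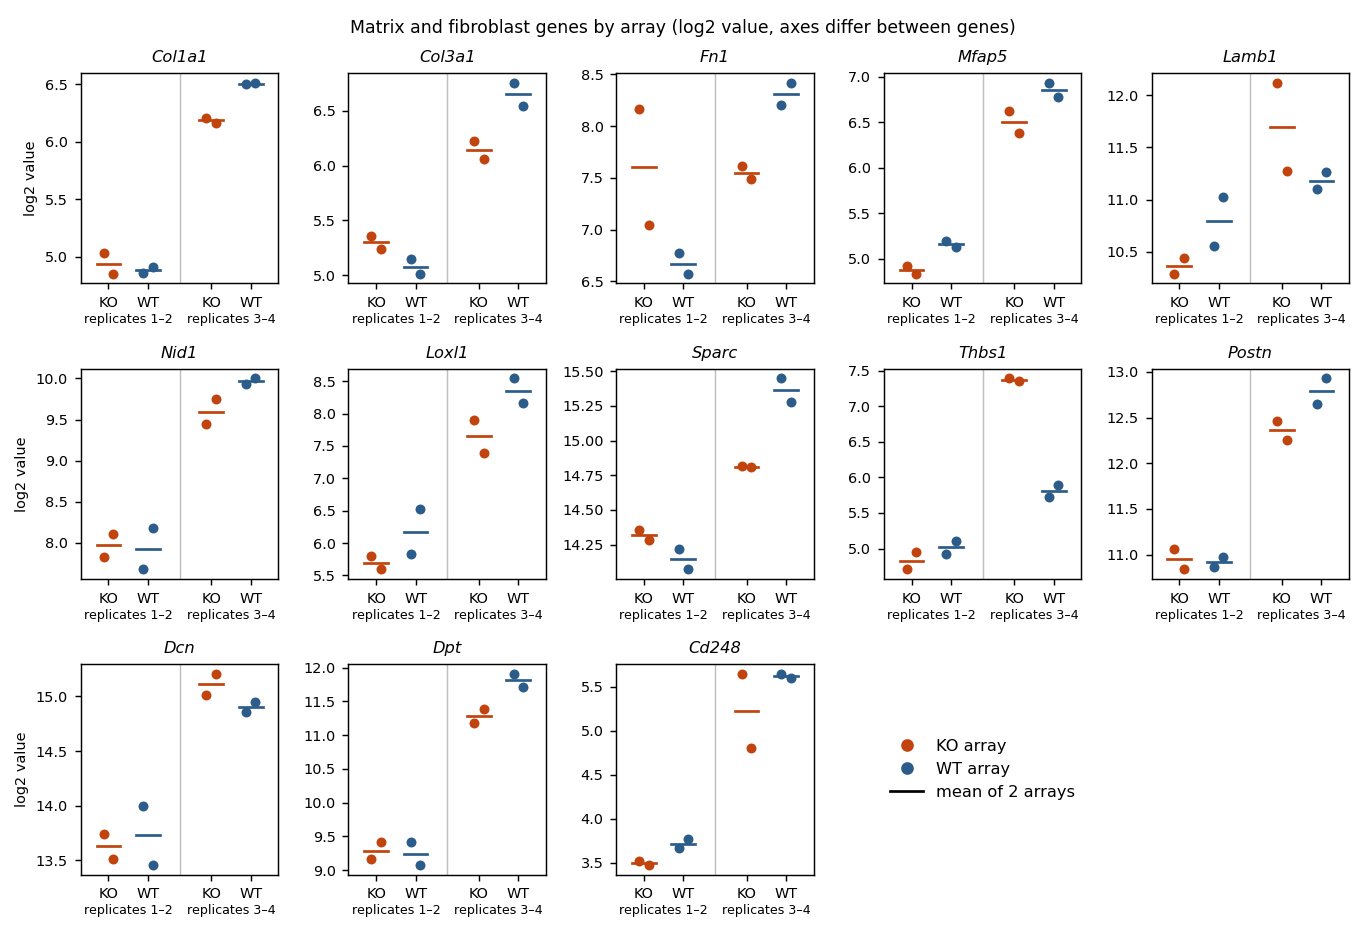
Log2 values of the 13 members described array by array, 1 panel per gene with its own y axis, KO left of WT within replicates 1 and 2 and within replicates 3 and 4, and bars at the mean of 2 arrays. Thbs1 stands at 7.39 and 7.35 in KO and at 5.73 and 5.90 in WT in replicates 3 and 4, while Col3a1, Fn1 and Sparc lie higher in KO on the left and lower on the right of their panels.

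Basement membrane genes did not move as 1 group. Of 6 measured members, 3 lay higher and 3 lower in KO in set 1 (median -0.10), and 4 higher and 2 lower in set 2 (median 0.14). Lamb1, a beta chain of laminin, read 10.29 and 10.44 in KO, against 10.55 and 11.03 in WT, in set 1. In set 2 it read 12.12 and 11.27 in KO, against 11.10 and 11.27 in WT. It was parted downward in set 1 and upward in set 2, where KO replicate 4 was at 11.272 and WT replicate 4 at 11.267. The difference between the sets was 0.94 (SE 0.40, limma adjusted p = 0.339), and without KO replicate 3 it was 0.52.

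Lama4, the alpha chain of vascular laminin, had the same high array, with 10.93 in KO replicate 3 and 9.80 in KO replicate 4, against 10.08 and 10.20 in WT, in set 2. Nid1, which encodes nidogen, the linker of laminin and type IV collagen, read 7.83 and 8.11 in KO, against 7.67 and 8.18 in WT, in set 1. Its set 2 values were 9.45 and 9.74 in KO, against 9.929 and 10.002 in WT, a difference of -0.37 (SE 0.20, limma adjusted p = 0.441). Nidogen thus lay on the side of the fibrillar collagens in set 2, while Col4a1, a chain of type IV collagen, was parted upward there by 0.36 (SE 0.16). Col4a2, its partner chain, differed by 0.04 (SE 0.14) and Col15a1, at the border of basement membrane and stroma, by -0.12 (SE 0.09).

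Remodelling genes had no common direction. In set 2, 4 of 7 lay higher and 3 lower in KO, from -0.70 (Loxl1) to 0.57 (Timp3), with a median of 0.02. In set 1 the range was -0.48 (Loxl1) to 0.51 (Lox) and the median -0.02. Lox, the lysyl oxidase that cross-links collagen, read 7.47 and 7.16 in KO, against 6.87 and 6.74 in WT, in set 1. Set 2 gave 8.80 and 9.59 in KO, against 9.39 and 8.72 in WT, where the groups overlapped. The 2 lysyl oxidases measured therefore lay on opposite sides of 0 over both sets, Lox at 0.33 (SE 0.22) and Loxl1 at -0.59.

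Mmp2, a gelatinase, differed by 0.40 (SE 0.18) in set 1 and 0.02 (SE 0.18) in set 2, and Mmp14, the membrane protease that activates it, by -0.02 (SE 0.16) and 0.28 (SE 0.16). Among the inhibitors, Timp3, which is bound to matrix, read 9.52 and 9.82 in KO, against 8.80 and 9.40 in WT, in set 2, a parting upward of 0.57 (SE 0.28, limma adjusted p = 0.398). Timp2 differed by -0.24 (SE 0.13) there. No remodelling gene passed the adjusted threshold in either set. In set 2 the fibrillar genes shared a sign while the 6 basement membrane and 7 remodelling members did not, a difference between the groups that was not tested. Of 8 further basement membrane genes outside the members, 7 lay lower in KO in set 2.

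**Figure D3:**
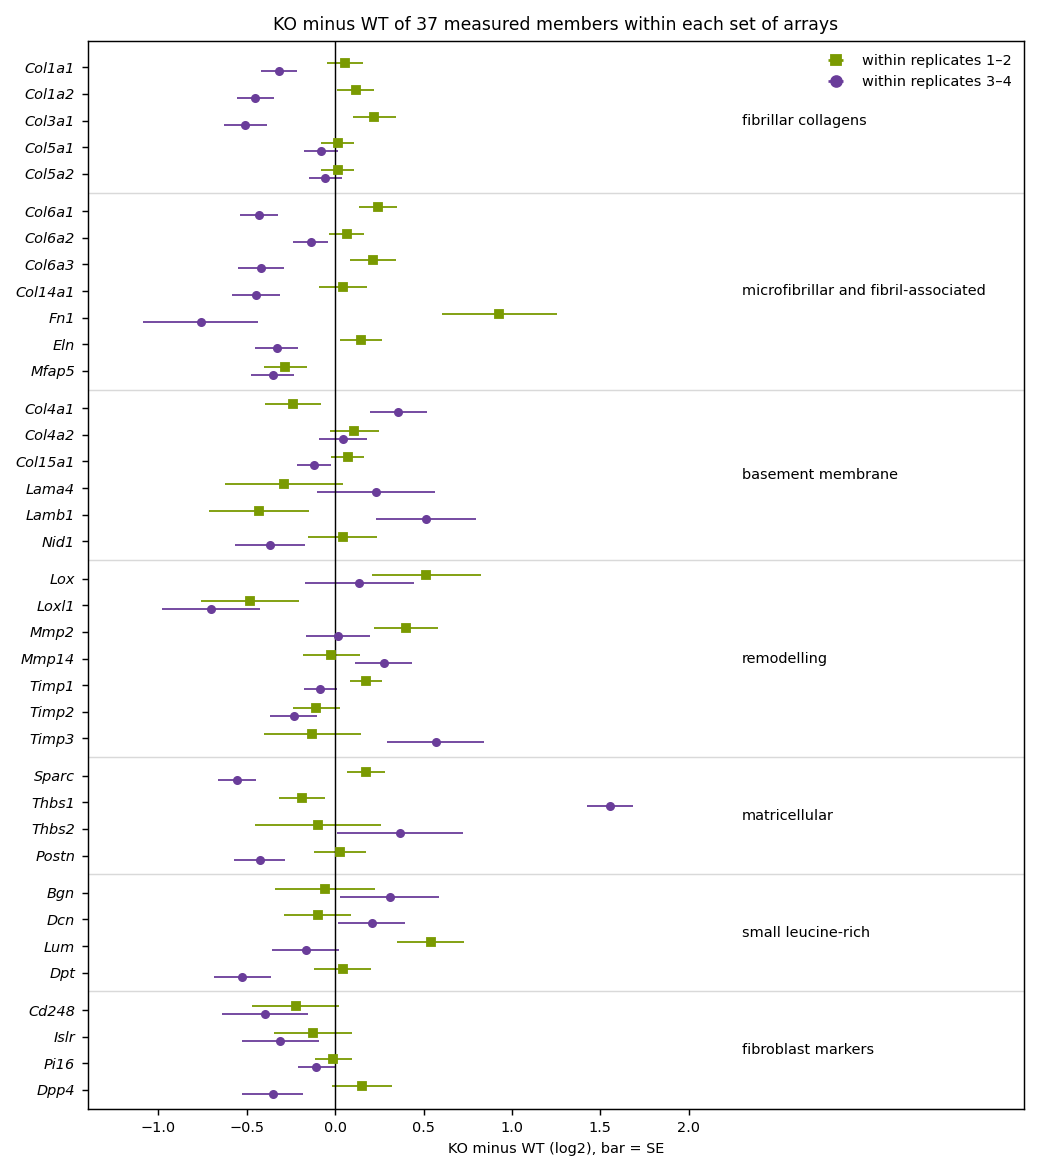
KO minus WT on the log2 scale for the 37 measured members, by role group, within replicates 1 and 2 (squares) and within replicates 3 and 4 (circles), with bars of 1 SE from limma. In the 2 upper groups every circle lies left of 0, and Thbs1 stands apart at 1.56.

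Thbs1 was the 1 member whose difference itself differed between the sets. It encodes thrombospondin 1, a matricellular glycoprotein known to restrain vessel growth and to activate latent transforming growth factor beta. Its values were 4.71 and 4.96 in KO, against 4.93 and 5.11 in WT, in set 1. In set 2 they were 7.39 and 7.35 in KO, against 5.73 and 5.90 in WT. KO lay far above WT in set 2, and the groups overlapped in set 1. The difference was 1.56 (SE 0.13, limma adjusted p = 0.0619) in set 2 and -0.19 (SE 0.13) in set 1.

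The set difference of Thbs1 was 1.74 (SE 0.18, limma adjusted p = 0.0366), where 0.498% of all genes passed. It was 1.62 to 1.87 with 1 array left out, but its adjusted p in limma was then 0.0632 to 0.158, so the call needs all 8 arrays. With trend and robust variances the adjusted p was 0.0522. Over both sets the difference was 0.68 (SE 0.33, limma adjusted p = 0.984).

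The other matricellular genes, whose products bind matrix without building it, did not go with Thbs1. Sparc, a collagen-binding glycoprotein, read 14.36 and 14.28 in KO, against 14.22 and 14.07 in WT, in set 1. Set 2 gave 14.82 and 14.81 in KO, against 15.45 and 15.28 in WT. It was parted upward in set 1 (0.18, SE 0.11) and downward in set 2 (-0.55, SE 0.11, limma adjusted p = 0.108), and the set difference was -0.73 (SE 0.15, limma adjusted p = 0.0945). After quantile normalization these 3 values were 0.29, -0.91 and -1.21.

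Postn, which encodes periostin, a collagen-organizing protein of fibroblasts, read 11.06 and 10.84 in KO, against 10.86 and 10.98 in WT, in set 1. Its set 2 values were 12.47 and 12.25 in KO, against 12.64 and 12.93 in WT. The groups overlapped in set 1 and were parted in set 2 by -0.43 (SE 0.15, limma adjusted p = 0.241). Thbs2, the relative of Thbs1, read 6.15 and 7.39 in KO, against 6.56 and 6.26 in WT, in set 2, so its KO values lay on either side of WT.

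The small leucine-rich proteoglycans and dermatopontin, which regulate fibril width, were mixed. Dcn, which encodes decorin, read 13.74 and 13.52 in KO, against 14.00 and 13.46 in WT, in set 1. In set 2 it read 15.01 and 15.21 in KO, against 14.86 and 14.95 in WT, a difference of 0.21 (SE 0.19). Over both sets it differed by 0.05 (SE 0.14). After quantile normalization both turned, to -0.10 in set 2 and -0.043 over both sets. Dpt, which encodes dermatopontin, read 9.16 and 9.41 in KO, against 9.41 and 9.08 in WT, in set 1. Its set 2 values were 11.19 and 11.39 in KO, against 11.91 and 11.72 in WT, and it was parted there by -0.53 (SE 0.16, limma adjusted p = 0.2).

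Lum, which encodes lumican, differed by 0.54 (SE 0.19) in set 1 and -0.17 (SE 0.19) in set 2. Bgn, which encodes biglycan, read 10.545 and 11.453 in KO, against 10.689 and 10.694 in WT, in set 2, so its KO values lay on either side of WT. Decorin and lumican are neighbours in the mouse assembly GRCm38.p6, as are Col3a1 and Col5a2, Col6a1 and Col6a2, and Col4a1 and Col4a2. Decorin and lumican lay on opposite sides of 0 in both sets. After quantile normalization they shared their sign, at 0.016 (Dcn) and 0.58 (Lum) in set 1 and -0.10 and -0.20 in set 2. The pair of Col6a1 and Col6a2 and that of Col3a1 and Col5a2 shared their sign in each set, and Col4a1 and Col4a2 shared it in set 2 only. Col5a2 stood at 0.014 (SE 0.094) in set 1. It turned there to -0.0066 after quantile normalization and -0.015 after median centring, while Col3a1 stayed above 0. Col4a2 in set 2 turned to -0.0075 after quantile normalization, while Col4a1 stayed above 0.

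The 4 fibroblast marker genes lay lower in KO in set 2, by -0.11 to -0.40 and a median of -0.33, and had a median of -0.07 in set 1. Without KO replicate 4 the set 2 count was 3 of 4 and the median -0.089, and without WT replicate 1 the set 1 median was 0.053. Cd248, which encodes endosialin of stromal and perivascular cells, read 3.51 and 3.47 in KO, against 3.67 and 3.77 in WT, in set 1, where it was at low signal. In set 2 it read 5.65 and 4.81 in KO, against 5.65 and 5.60 in WT, so KO replicate 4 alone was low. Its difference was -0.31 (SE 0.17, limma adjusted p = 0.984) over both sets and -0.12 without KO replicate 4. Dpp4 and Pi16, markers of early stromal progenitors, differed in set 2 by -0.35 (SE 0.17) and -0.11 (SE 0.10), and Islr by -0.31 (SE 0.22), or -0.033 without WT replicate 3. The mean of all 9 measured fibroblast markers was 5.97 and 5.92 in KO, against 6.22 and 6.18 in WT, in set 2, and 4.43 and 4.43 in KO, against 4.38 and 4.43 in WT, in set 1.

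Counted by an unadjusted p under 0.05 within set 2, 12 members lay lower and 1 higher in KO, or 32.4% and 2.7%, beside 6.14% and 8.93% of all genes. Among genes with means above low signal the shares were 8.68% lower and 12.8% higher in set 2, and 8.67% and 3.23% in set 1. After adjustment over all genes 0 members passed there (0.00326% of all genes did), with Thbs1 lowest. Within set 1 the unadjusted counts were 0 lower and 2 higher, Fn1 and Lum, or 0% and 5.41%, beside 5.08% and 2.66% of all genes (7.74% on either side), and 0 passed after adjustment (0% of all genes). For the difference between the sets, 28 of 37 members were below 0, or 75.7%, beside 48.8% of all genes. At an unadjusted p under 0.05, 11 members lay on the lower side and 2 on the higher, or 29.7% and 5.41%, beside 5.43% and 9.46% of all genes. Of the genes with means above low signal 42.2% were below 0, and at that p 7.49% lay lower and 15.4% higher. The 5 fibrillar and 7 microfibrillar genes stayed below 0 in set 2 after quantile normalization and after median centring. They also did with any 1 array left out. For the genes parted there, 4 of the 5 and 7 of the 7, leaving out 1 array cannot turn the sign. Col5a2, the gene not parted, ranged from -0.11 to -0.0075. In set 1 the count of the 12 above 0 was 11, against 9 under either scaling and 8 without KO replicate 1.

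Other tissues varied between the arrays as well. The mean of 15 skeletal muscle markers read 6.13 and 8.95 in KO, against 7.94 and 7.47 in WT, in set 1, and 5.50 and 10.19 in KO, against 10.73 and 9.03 in WT, in set 2. Over both sets 15 of 15 lay lower in KO. In set 2 KO replicate 3 was the lowest array for muscle and KO replicate 4 lay between the WT arrays, while both lay below WT for fibrillar collagens. Without KO replicate 3 the median of fibrillar collagens in set 2 was -0.34, and without KO replicate 4 it was -0.30. Markers of mural cells, the pericytes and smooth muscle of vessels, averaged 9.25 and 9.19 in KO, against 9.34 and 9.61 in WT, in set 2, and lay lower in KO in 4 of 8. Endothelial markers averaged 10.45 and 10.55 in KO, against 10.29 and 10.55 in WT. In set 2 macrophage markers lay higher in KO in 8 of 9, and brown adipocyte markers lower in 9 of 10, beside 46.5% of all genes below 0. The means of both lists overlapped between KO and WT. They were 7.80 and 8.09 in KO, against 7.58 and 7.85 in WT, for macrophages, and 16.21 and 15.52, against 15.96 and 16.12, for brown adipocytes. Ucp1, Cidea and Fabp4 differed by only -0.0075, -0.0083 and -0.0075. These genes read near the top of the scale in set 2. Ucp1 was the highest value of each array there, so its difference is that of the array maxima. Of the same list Plin1 differed by -1.91 (SE 0.43) and Elovl3 by -1.04 (SE 0.48), both parted downward. Dio2 lay higher by 2.02 (SE 0.88). Of 9 tendon and cartilage markers, 0 were above low signal on all arrays of either set, and of 5 mesothelial markers 1 was. The part of these cell types in the matrix values was not tested.

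**Figure D4:**
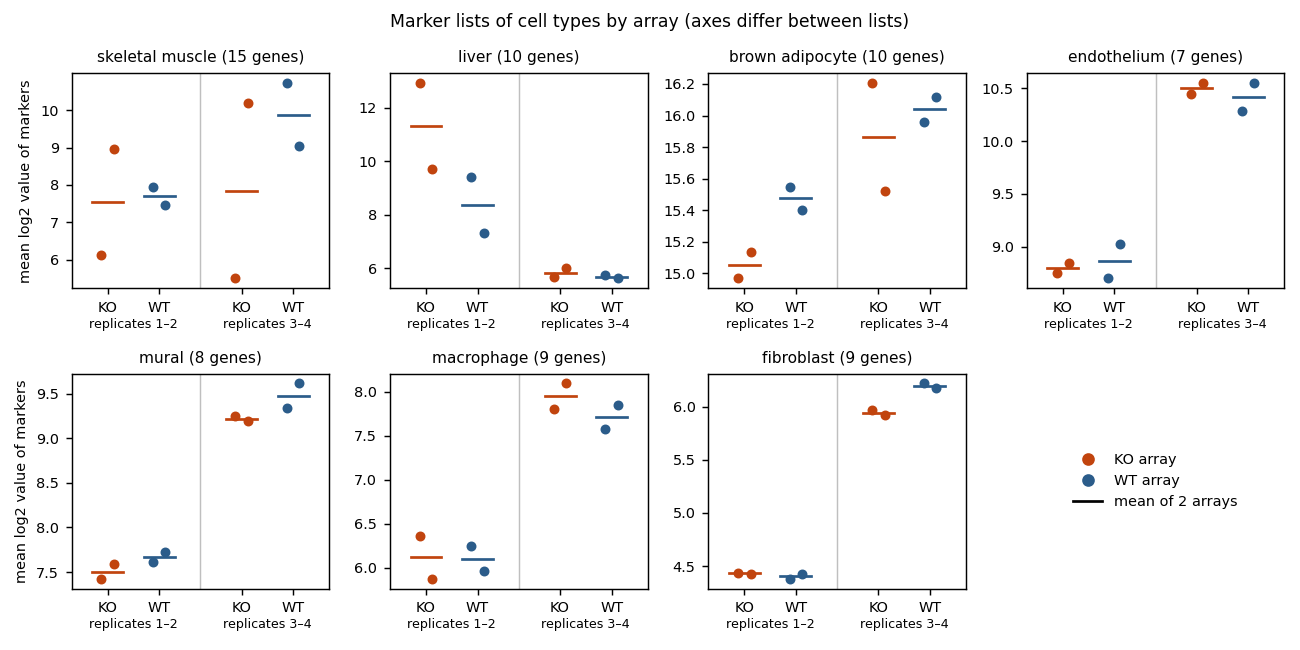
Mean log2 value of the measured markers of 7 cell types on each array, 1 panel per list with its own y axis, KO left of WT within each set, and bars at the mean of 2 arrays. Muscle markers of KO replicates 3 and 4 lie far apart, at 5.50 and 10.19, and fibroblast markers of KO lie below WT in replicates 3 and 4. The liver mean reads 7.33 to 12.92 in replicates 1 and 2 and 5.61 to 6.00 in replicates 3 and 4. Not all its genes are low in the latter, where Cyp2e1 reads 15.94 to 17.86.

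Genes that make, fold, sense or degrade matrix were looked at beside the members. Of 62 such genes 57 were measured, and 0 passed in limma over both sets. At an unadjusted p under 0.05 there were 2, Crtap and Pcolce2, both lower in KO, or 3.51% of the 57, beside 2.34% of all genes on that side. Among genes with means above low signal that share was 3.29%. Crtap, a subunit of the collagen prolyl 3-hydroxylase complex, read 7.67 and 7.28 in KO, against 7.73 and 7.60 in WT, in set 1, and 10.56 and 10.60 in KO, against 10.93 and 10.95 in WT, in set 2. The difference was -0.28 (SE 0.10, limma adjusted p = 0.984). Pcolce2, which speeds the trimming of procollagen, differed by -0.24 (SE 0.09), Agrn, the basement membrane proteoglycan agrin, by -0.28 (SE 0.13), and Ddr2, a collagen receptor kinase, by -0.23 (SE 0.11).

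By role, the counts lower in KO over both sets were 7 of 13 for collagen folding and processing, 8 of 8 for receptors of matrix and 6 of 8 for further basement membrane genes. They were 10 of 11 for ligands, latency proteins and receptors of transforming growth factor beta, 7 of 9 for its signal and target genes, and 2 of 8 for further proteases and inhibitors. These counts did not hold in each set. Of the 11 genes 7 lay lower in set 1 and 7 in set 2. Of the 9 signal and target genes 8 lay lower in set 1 and 2 in set 2, and of the 8 receptors of matrix 3 and 7. Over both sets the medians of the 6 groups lay between -0.09 and 0.08. Of the 57 genes 70.2% were below 0, beside 47.4% of all genes and 53.3% of genes with means above low signal.

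For the difference between the sets, 33 of the 57 genes were below 0, or 57.9%, beside 48.8% of all genes, and 24 were above 0. At an unadjusted p under 0.05, 8 lay on the lower side and 6 on the higher, or 14.04% and 10.53%. The shares of all genes were 5.43% and 9.46%, and those of genes with means above low signal 7.49% and 15.4%. Some of the 57 genes had the turn of the collagens, with larger sizes. They were picked after their values were seen. Hspg2, which encodes the proteoglycan perlecan, read 6.79 and 6.99 in KO, against 6.39 and 6.59 in WT, in set 1. Set 2 gave 7.86 and 7.76 in KO, against 8.95 and 8.53 in WT. It was parted in opposite directions, by 0.40 (SE 0.16) and -0.94 (SE 0.16), with a set difference of -1.34 (SE 0.23, limma adjusted p = 0.0663). Ltbp3, a latency protein of transforming growth factor beta, differed by 0.46 and -0.93, and Serpinh1, the collagen chaperone HSP47, by 0.28 and -0.81. Others of the list had the opposite turn, parted downward in set 1 and upward in set 2. Among them were the receptor genes Tgfbr2 (-0.93 and 0.76) and Tgfbr3 (-0.63 and 0.56), and P4hb (-0.36 and 0.35) of the collagen folding group.

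Adamts1, a protease that cuts proteoglycans and thrombospondin, lay with Thbs1. It read 6.66 and 6.60 in KO, against 5.81 and 6.00 in WT, in set 2, a difference of 0.73 (SE 0.12, limma adjusted p = 0.0891), and differed by -0.09 (SE 0.12) in set 1. Skil, which encodes SnoN, a repressor of Smad signalling, read 7.29 and 6.99 in KO, against 9.495 and 8.888 in WT, in set 1, and 10.88 and 9.63 in KO, against 9.19 and 9.21 in WT, in set 2. Skil differed by -2.05 (SE 0.39) in set 1, where Thbs1 differed by -0.19, and by 1.06 (SE 0.39) in set 2. Its set difference of 3.11 (SE 0.56, limma adjusted p = 0.0727) had the sign of that of Thbs1, as in 15727 of 30702 genes. A link between the 2 genes was not tested.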

How the data were processed

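Total RNA was hybridized to 1 Affymetrix array per mouse, and, per the labels, the deposited log2 values were made by the authors with RMA in Affymetrix Expression Console (core-exon analysis). That the base is 2 follows from their range. Software versions and the build used are not stated in the sources at hand, the array type is not settled, and no scanner files were used. The platform table named 1 gene for 31258 of 65956 probe sets other than controls, several genes for 1492 and none for 33206. Symbols were updated with a RefSeq table of GRCm38.p6 (31256 matched), which served for names and for gene order only. Where a gene had several probe sets, that of the highest mean was kept.

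KO was set against WT with limma 3.58.1 in R 4.3.3 (lmFit, eBayes), fitted on all 30702 genes with the set of arrays as a block, since the sets look normalized apart (earlier work on these data fitted no such block). Differences within and between sets came from a fit of 4 group means over all 8 arrays. Calls used a Benjamini-Hochberg adjusted p under 0.05. The fits were run on simulated data with independent noise for each gene, which checks the code and not the differences reported here. Samples were grouped by their titles.

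The members, role groups, lists and tests were chosen with earlier results of these data known, so lists get counts and medians without a test. Members given array by array had an unadjusted p under 0.05, or were among the 5 largest set differences, the 5 highest means or the smallest p of a role group. Of the further matrix genes the 4 smallest p were named. Other genes given array by array (Lox, Lama4, Timp3, Thbs2, Bgn, Hspg2, Adamts1, Skil) were chosen after their values were seen. Marker lists are given by their means.

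The groups share replicate numbers. With group means taken out, KO and WT arrays of 1 number correlated at 0.701, 0.473, 0.479 and 0.61, and with the set taken out as well at 0.107, 0.107, -0.0891 and -0.0891, so a pairing beyond the sets is not shown. Alternatives were other blocks, normalization, filtering, variance settings and leaving out each array.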

Additional observations from a re-analysis of the deposited data

Results flagged for a closer look

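Thbs1 had a KO minus WT difference that differed between the 2 sets of arrays by 1.74 (SE 0.18, limma adjusted p = 0.0366 for the difference itself). It was 1.56 in replicates 3 and 4 and -0.19 in replicates 1 and 2, with 2 of 2 KO arrays above the WT mean of their set in set 2 and 0 of 2 in set 1.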

How the results depend on the processing

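With the replicate block in place of the set, limma called 0 genes over both sets (1234 at an unadjusted p under 0.05), 0 members and 0 of the further matrix genes. With no set block it also called 0 (38 at an unadjusted p under 0.05), as with the set as a block (1481). Counts of genes called moved with the setting. For the difference between the sets there were 153, against 82 after median centring, 331 after a filter on low values (17297 genes tested), 6 with trend and robust variances, and 0 to 10 with 1 array left out. The 1 member called there, Thbs1 (1.74), was 0 with trend and robust variances and 0 to 0 with 1 array left out. Calls with 1 array left out ranged from 0 to 1 for KO against WT, from 0 to 14 within set 1 and from 0 to 10 within set 2, where 1 gene passed, 0 after quantile normalization or with the set fitted alone, and 12 after the filter, 1 of them the member Thbs1 (limma adjusted p = 0.04998). Medians of KO minus WT with 1 array left out ranged from -0.20 to -0.030 for fibrillar, -0.19 to -0.0235 for microfibrillar, -0.11 to 0.11 for matricellular and -0.054 to 0.16 for small leucine-rich genes, and from -0.087 to -0.026 for all members. Within set 1 they were 0.016 to 0.15 for fibrillar, -0.32 to -0.017 for basement membrane and -0.12 to 0.18 for remodelling genes, and within set 2 -0.11 to 0.33 for basement membrane and -0.11 to 0.016 for remodelling genes, the last 0.077 after the filter. After quantile normalization Dcn turned to -0.043 over both sets, and the set differences of Dcn (-0.12) and Cd248 (0.0041) turned too. Leaving out 1 array turned KO minus WT of Fn1 (-0.31 to 0.30), Lamb1 (-0.22 to 0.23) and Dcn (-0.023 to 0.19) and the set differences of Mfap5 (-0.20 to 0.050), Loxl1 (-0.57 to 0.13) and Cd248 (-0.59 to 0.25). The causes were not tested. Where 1 array of a pair is left out, the lone array is assumed to vary like the others.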
